A study of Drosophila melanogaster with 2 samples.

Results

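The 73 protein-coding genes whose symbols begin with mRpL or mRpS and a digit encode proteins of the Drosophila melanogaster mitochondrial ribosome. They were taken by symbol from the Ensembl annotation of the dm6 assembly and made up 73 of 13945 protein-coding genes on the 6 chromosome arms 2L, 2R, 3L, 3R, 4 and X. By symbol, 47 of the 73 carry the large-subunit prefix mRpL and 26 the small-subunit prefix mRpS. Whether each protein sits in the subunit of its prefix was not checked. Genes for mitochondrial ribosomal proteins under other symbols were not members. In whole pupae aged 2 days, an antibody to GFP was used for ChIP-seq of CG10348, a predicted zinc-finger protein, and the resulting peaks were read here at the promoters of these genes. The single group held 2 biological replicates, numbered 1 and 2 in the labels, of 1 transgenic strain with a CG10348-eGFP fusion. What drives the fusion was not given in the sources used here, and whole pupae mix every tissue of the animal, so the cells that carried a peak were not resolved. There was no second condition, hence no comparison between treatments, and the results are described by counts and intervals without a test.

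Mitochondrial ribosomes translate the few proteins that mitochondrial DNA encodes, all of them subunits of the respiratory chain or ATP synthase. The ribosomal RNAs come from mitochondrial DNA, but every ribosomal protein is encoded in the nucleus, translated in the cytosol and imported. Cytosolic ribosomes, which translate all other messages, are built from proteins of a separate set of nuclear genes.

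A gene was called bound when the summit of a peak lay within 1 kb of one of its transcription start sites (TSSs). The main peak list was the conservative set of 1814 peaks that the authors had thresholded on the irreproducible discovery rate (IDR), a measure of how alike a region ranks in paired lists; the lowest scaled score in it, 830, stands for an IDR of about 0.01. Of the 73 genes, 8 were bound (11.0%, Wilson 95% interval 5.66 to 20.2), against 7.7% of all protein-coding genes (1074 of 13945). The interval was wide and held the share over all genes, so in this list the count was not told apart from the background. A stricter IDR is given further on. Of 93 cytosolic ribosomal protein genes (symbols beginning with RpL or RpS and a digit or with RpLP, and sta), 6 were bound (6.45%, 2.99 to 13.4), with an interval that overlapped the first. In the optimal list of the authors 8 members were bound, against 8.16% of all genes. In the thresholded list of replicate 1, 7 members were bound (9.59%, 4.72 to 18.5), against 6.17% of all genes, and 5 cytosolic ribosomal protein genes. In that of replicate 2 the same 7 members were bound, against 4.96% of all genes, and 3 cytosolic ribosomal protein genes (3.23%, 1.10 to 9.06). Intervals cover counting error over genes only, and depth was unknown because the lists held no read counts.

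The 8 bound genes were mRpL41, mRpS23, mRpL23, mRpS10, mRpL24, mRpL20, mRpS2 and mRpL34, in order of signal, with 1 peak each. Both prefixes were represented, by 5 of 47 mRpL genes (10.6%, 4.63 to 22.6) and 3 of 26 mRpS genes (11.5%, 4.003 to 29.0). CG10348 itself had no conservative summit within 1 kb of a TSS.

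All 8 bound members had a neighbour that starts nearby and is transcribed in the opposite direction, head to head, within 1 kb. The summit lay upstream of both genes, in the stretch between the TSSs, in 7 of the 8 pairs. The sequences of 5 of these stretches are shown because they carry the peaks: the whole interval between the TSSs of mRpS10 and Art3, of mRpL24 and betaggt-I and of mRpS2 and Mon1, and 100 bp centred on the summit for the wider intervals of mRpS23 and mRpL20. The sequences shown are from the RefSeq genome of the dm6 assembly, forward strand, 5' to 3', and hold no base of an annotated transcript. Capitals mark every match to 8 motifs described further on, and the summit is base 109 of the mRpS10 sequence, base 134 of that of mRpL24, base 124 of that of mRpS2 and base 51 of the other two.
mRpS10 and Art3, chr3R:15229409-15229664: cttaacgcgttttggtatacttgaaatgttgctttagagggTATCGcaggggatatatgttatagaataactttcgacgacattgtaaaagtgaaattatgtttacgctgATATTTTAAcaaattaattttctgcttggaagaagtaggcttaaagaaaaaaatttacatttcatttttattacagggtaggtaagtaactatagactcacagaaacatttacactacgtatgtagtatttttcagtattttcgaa
mRpL24 and betaggt-I, chr2L:4945362-4945578: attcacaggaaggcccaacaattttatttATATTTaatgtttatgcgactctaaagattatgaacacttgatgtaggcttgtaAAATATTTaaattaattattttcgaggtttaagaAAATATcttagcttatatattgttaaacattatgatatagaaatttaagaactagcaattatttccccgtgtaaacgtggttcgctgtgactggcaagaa
mRpS2 and Mon1, chr2L:4850420-4850640: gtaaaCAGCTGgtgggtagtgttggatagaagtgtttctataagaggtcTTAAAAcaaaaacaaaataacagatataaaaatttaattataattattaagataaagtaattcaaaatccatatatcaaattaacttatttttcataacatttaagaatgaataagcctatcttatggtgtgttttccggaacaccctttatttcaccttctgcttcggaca
mRpS23 and CenG1A, chr2L:13835420-13835519: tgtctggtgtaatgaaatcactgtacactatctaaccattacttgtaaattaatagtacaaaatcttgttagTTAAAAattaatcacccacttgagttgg
mRpL20 and Icmt, chr3L:13018063-13018162: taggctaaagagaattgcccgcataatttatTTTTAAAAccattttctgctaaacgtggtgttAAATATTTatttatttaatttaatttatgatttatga

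All 5 stretches are rich in A and T. Over the printed length G and C made up 30.1% at mRpS10, 28.6% at mRpL24, 28.1% at mRpS2, 30% at mRpS23 and 23% at mRpL20. The capitals at the summit of mRpS10 are overlapping matches to a pair of AT-rich words that start 2 and 5 bp from it, and the mRpL24 summit has such a word 16 bp to its left. In the mRpS2 interval the capitals stand away from the summit, 118 bp and 74 bp to its left.

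The strongest member peak was at mRpL41 (FBgn0034001), a large-subunit protein without a bacterial counterpart. Its pooled signal, the authors' peak strength on a scale that was not stated, was 594.6 at 2R 15217618 to 15217877, rank 10 of 1814, with 384.5 in the list of replicate 1 and 225.4 in that of replicate 2. The summit lay 138 bp upstream of the mRpL41 TSS and 624 bp upstream of CG8079, so mRpL41 was the nearer gene.

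mRpS23 (FBgn0260407), a small-subunit protein that bacteria also lack, followed with a pooled signal of 531.2 at 2L 13835340 to 13835586, rank 16, with 320.2 in replicate 1 and 209.3 in replicate 2. Here the neighbour was closer: the summit was 398 bp upstream of mRpS23 and 94 bp upstream of a TSS of CenG1A, which encodes an Arf GTPase-activating protein. This was the longest summit distance among the bound members.

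mRpL23 (FBgn0035335), whose bacterial counterpart lines the exit tunnel of the large subunit, had a pooled signal of 486.6 at 3L 2373473 to 2373714, rank 22, with 271.6 in replicate 1 and 211.0 in replicate 2. It was the exception in position. The gene has 3 annotated TSSs, and the summit lay 83 bp inside the nearest and 109 bp inside the first, but 94 bp upstream of the last. It was 133 bp upstream of the neighbour CG9004.

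mRpS10 (FBgn0038307), a small-subunit protein conserved from bacteria, had a pooled signal of 454.6 at 3R 15229414 to 15229639, rank 27, with 275.8 in replicate 1 and 182.5 in replicate 2. Its summit was 148 bp upstream of mRpS10 and 109 bp upstream of Art3, a protein arginine methyltransferase gene. These 4 genes carried the strong peaks of the members, from 454.6 to 594.6 in the pooled list.

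**Figure D1:**
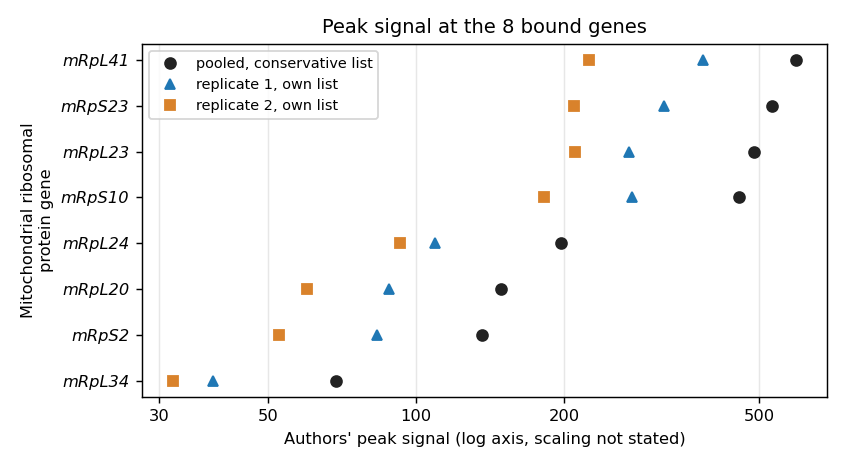
Peak signal on a log axis at each of the 8 bound mitochondrial ribosomal protein genes, as the authors deposited it for the pooled samples (circles) and for each replicate's own list (triangles and squares). The upper 4 genes stand between 454.6 and 594.6 in the pooled list, the lower 4 between 68.7 and 197.5, and replicate 1 is above replicate 2 at every gene.

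The other 4 peaks were weaker. mRpL24 (FBgn0031651), whose bacterial counterpart starts assembly of the large subunit, had a pooled signal of 197.5 at 2L 4945453 to 4945569, rank 195, with 109.2 in replicate 1 and 92.6 in replicate 2. The summit was 134 bp upstream of mRpL24 and 84 bp upstream of betaggt-I, which encodes the beta subunit of a prenyltransferase, an enzyme that attaches a lipid to proteins. mRpL20 (FBgn0036335), also an assembly protein of the large subunit in bacteria, had 148.7 at 3L 13017945 to 13018280, rank 346, with 88.0 in replicate 1 and 59.9 in replicate 2. Its summit was 246 bp upstream of mRpL20 and 153 bp upstream of Icmt, which encodes a methyltransferase of lipid-modified proteins.

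mRpS2 (FBgn0031639), a small-subunit protein conserved from bacteria, had a pooled signal of 136.3 at 2L 4850375 to 4850710, rank 398, with 83.3 in replicate 1 and 52.6 in replicate 2. Its summit was 124 bp upstream of mRpS2 and 98 bp upstream of Mon1, part of a complex that activates the late endosomal GTPase Rab7. mRpL34 (FBgn0083983), a small protein of the large subunit, had the weakest, 68.7 at 2R 16098620 to 16098955, rank 1273, with 38.7 in replicate 1 and 32.0 in replicate 2. The summit was 160 bp upstream of mRpL34 and 224 bp upstream of Dg, which encodes the laminin receptor dystroglycan.

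The replicates gave these peaks at nearly the same places, and mRpL34 alone was in neither thresholded list. Peaks in the thresholded lists of both replicates overlapped 7 of the 8, at an overlap of at least 1 bp. At mRpL34 both replicates had only lower-ranked regions, with scaled IDR scores of 430 and 756 against the minimum of 830. Replicate 1 had the higher signal at all 8, by a median log2 ratio of 0.58 (range 0.24 to 0.77). Over 1779 conservative peaks with a region in both lists the median log2 ratio was 0.28 with an SD of 0.47, and the member ratios fell within that spread or just above it. The summits of replicate 1 lay at most 14 bp from the pooled ones and those of replicate 2 at most 43 bp, with medians of 5 and 3 bp. The authors used 1 control for both, and its part in the likeness of the replicates was not tested.

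The median distance between summit and member TSS was 143 bp (n = 8, range 83 to 398), and 7 of 8 summits were within 250 bp. It was 134 bp in replicate 1 and 149 bp in replicate 2 (n = 7 each). Over all 1074 bound genes, the median distance from the strongest peak of each to a TSS of that gene was 206 bp. Distances to the nearest TSS of any gene are another measure and can be shorter. Their median was 209 bp over the 860 conservative peaks at promoters. Over the 212 of them that lay upstream of both genes of a head-to-head pair it was 113.5 bp (quartiles 81 and 159.2). The member summits lay between 83 bp (mRpL23) and 160 bp (mRpL34) from the nearest TSS of any gene, much like these 212. A summit counted for every gene within 1 kb, and in 5 of the 8 pairs the neighbour's TSS was closer than that of the ribosomal protein gene. The distances to the 2 TSSs of a pair differed by 26 bp at mRpS2, 39 bp at mRpS10 and 50 bp at mRpL24 and mRpL23, but by 304 bp at mRpS23 and 486 bp at mRpL41. Counting only the gene with the nearest TSS, 3 members were bound (5.68% of all genes were), mRpL41, mRpL23 and mRpL34, or 37.5% of the 8. Of all 1074 bound genes, 792 (73.7%) had the nearest TSS. These shares are over unlike sets: 561 of the 860 promoter peaks had 1 gene within 1 kb, which was then the nearest. Every member peak had a second gene within 1 kb, and the share over all bound genes with such a neighbour is not given here. To which gene of a pair a peak belongs cannot be told apart from these lists.

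**Figure D2:**
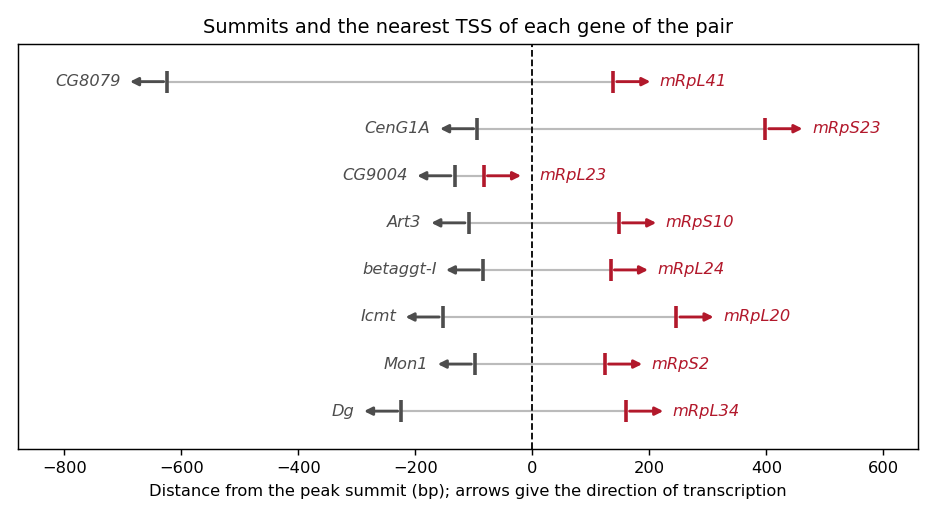
Position of the summit (dashed line) between each bound mitochondrial ribosomal protein gene, drawn to the right in red, and its head-to-head neighbour in grey, with the distance in bp and arrows for the direction of transcription. The summit falls between the TSSs in 7 pairs; at mRpL23 it lies 83 bp inside the nearest TSS of the gene.

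Head-to-head arrangement was common among all members, bound or not. Of the 73 members, 58 (79.5%, 68.8 to 87.1) had a head-to-head TSS of another protein-coding gene within 1 kb, against 36.2% of all genes, 60.2% (50.1 to 69.6) of the cytosolic ribosomal protein genes and 57.5% of all bound genes. The median gap was 283 bp in the members and 298 bp over all genes. Among head-to-head genes, 8 of 58 members were bound (13.8%, 7.16 to 24.9), against 12.2% of all such genes. Of the 15 members without such a neighbour none was bound, where 3 counts would be 20% and 5.14% of all such genes were bound. The cytosolic genes gave 6 of 56 (10.7%, 5.004 to 21.5) and 0 of 37. Among head-to-head genes the share of bound members was thus near that of all genes.

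By arm, 3 of 12 members on 2L were bound (25%, 8.89 to 53.2), against 7.72% of all genes of that arm. On 2R 2 of 12 were bound (16.7%, 4.70 to 44.8), against 6.56%, on 3L 2 of 17 (11.8%, 3.29 to 34.3), against 8.62%, and on 3R 1 of 21 (4.76%, 0.846 to 22.7), against 8.10%. None of the 11 members on X was bound, and 3 counts of that total would be 27.3%; the share over all X genes was 7.70%. No member lies on chromosome 4. The 2L interval lay just above the share of all 2L genes, but it rests on 3 bound members. That arm was 1 of several looked at, and the difference was not tested.

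**Figure D3:**
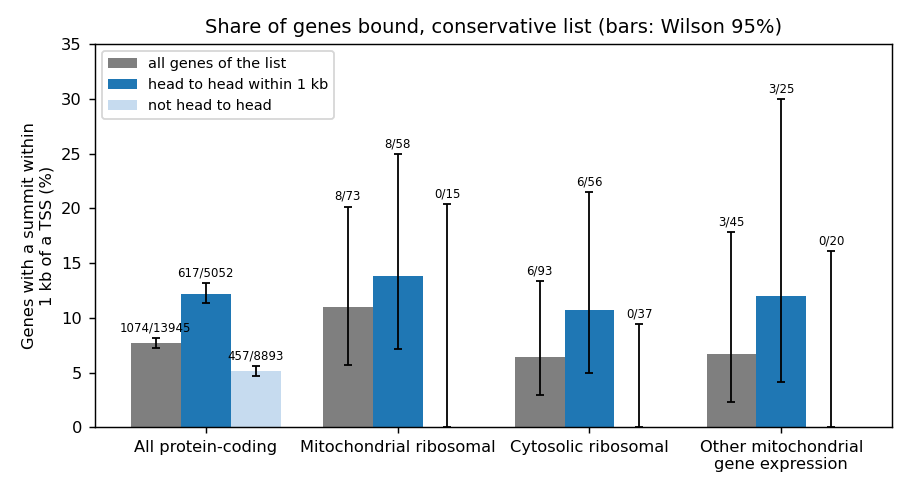
Percent of genes with a conservative summit within 1 kb of a TSS, for all protein-coding genes and 3 lists, over all genes of the list and split by a head-to-head neighbour within 1 kb, with the number bound over each bar and Wilson 95% intervals as error bars. Among head-to-head genes the mitochondrial ribosomal list stands at 13.8% and all genes at 12.2%.

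Most member peaks were among the stronger ones of the list. The median percentile of their signal in the conservative list was 93.9 (n = 8, range 29.9 to 99.5), against a median of 60.1 over the 860 promoter peaks and 66.5 over the 212 between head-to-head genes. Above the 90th percentile stood 4 of the 8, against 135 of the 860 promoter peaks (15.7%). The 6 cytosolic ribosomal peaks had a median percentile of 33.7 (range 9.10 to 82.7), and none stood above the 90th. The 3 peaks at other genes of mitochondrial gene expression, described further on, had a median of 92.8 (range 82.8 to 99.1), close to that of the members. In the replicates' own thresholded lists the median percentile of the member peaks was 98.4 and 96.2 (n = 7 each). The difference in strength was not tested.

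**Figure D4:**
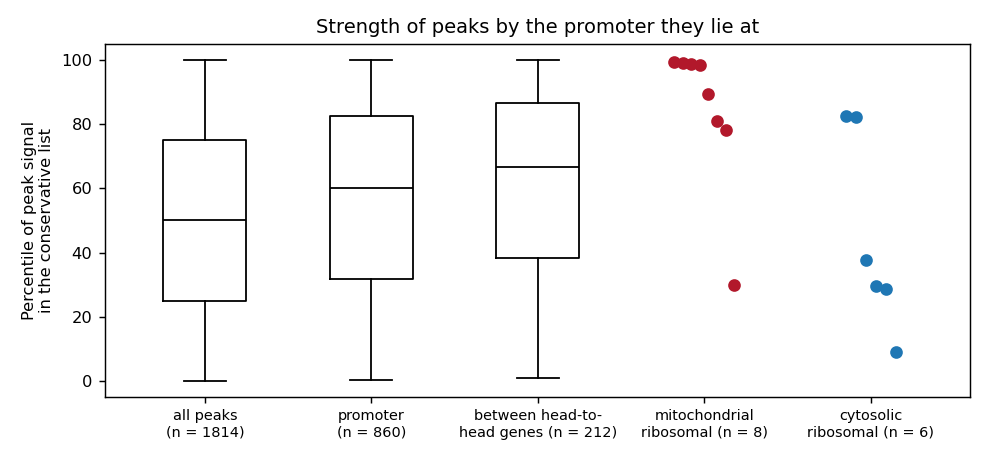
Percentile of peak signal in the conservative list for all peaks, promoter peaks and peaks between head-to-head genes (boxes: quartiles and median; whiskers: lowest and highest) and for the single peaks at mitochondrial (red) and cytosolic (blue) ribosomal protein genes. Of the 8 red points 4 lie above the 90th percentile and 1 at 29.9, and the blue points lie between 9.10 and 82.7.

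The cytosolic peaks were at RpL32 (pooled signal 156.7; 81.9 and 69.2 in the replicates), RpS19b (154.0; 85.8 and 69.5), RpL34b (75.1), RpL23 (68.6), RpS27 (67.7) and RpL14 (54.0). Their genes encode proteins of both cytosolic subunits. The RpS19b summit lay 879 bp upstream, nearer to another gene, and the other 5 summits were closest to the ribosomal protein gene itself. The order of the shares depended on the rule. With an IDR of 0.001, 2 of 93 cytosolic genes (2.15%, 0.592 to 7.51) and 7 of 73 members (9.59%, 4.72 to 18.5) were bound, against 4.35% of all genes. With the nearest TSS alone, 5 of 93 cytosolic genes (5.38%, 2.318 to 11.97) and 3 of 73 members (4.11%, 1.41 to 11.4) were bound, against 5.68% of all genes. The intervals of the 2 lists overlapped under both rules. With an IDR of 0.001 the member interval lay just above the 4.35% of all genes, and with the nearest TSS alone it held the 5.68%. The stricter IDR was 1 of several rules tried, and the difference was not tested.

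Of 45 other nuclear genes of mitochondrial gene expression 3 were bound (6.67%, 2.29 to 17.9, an interval that held the 7.7% of all genes), all of them head to head with a neighbour. PNPase, which encodes a mitochondrial RNA-degrading enzyme, had a pooled signal of 521.2 (278.0 in replicate 1 and 248.5 in replicate 2), 78 bp inside its nearest TSS. SLIRP2, a gene of the family that stabilises mitochondrial RNA, had 233.6 (134.9 and 99.6), 117 bp upstream. The leucyl-tRNA synthetase gene LeuRS-m had 156.7 (79.5 and 75.6), 889 bp upstream and nearer to another gene. RNA processing and stability gave 2 of 10 genes, aminoacyl-tRNA synthetases 1 of 15, transcription and DNA maintenance 0 of 11 (limit of 3 counts, 27.3%) and translation factors 0 of 9 (33.3%).

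The 65 members without a conservative summit had weaker regions at their promoters about as often as other unbound genes. A ranked region that had not passed the threshold lay within 1 kb of 59 of them (90.8%), against 87.6% of all 12871 unbound genes. The best such region of each gene had a median signal of 25.5 (quartiles 18.2 and 31.8) in the members and 25.3 (19.2 and 32.3) over all unbound genes. The highest were at mRpS6 (53.1, 101 bp upstream), mRpL18 (45.4, 13 bp upstream), mRpS35 (44.9, 718 bp upstream) and mRpL33 (42.1, 607 bp upstream), of which mRpS6 had 39.6 in replicate 1 and 20.5 in replicate 2. In the pooled list these stood below the 68.7 of mRpL34, the weakest bound member. Within replicate 1, mRpS6 was slightly above mRpL34 (38.7), and within replicate 2 it was below it (32.0). No pooled region below the threshold was listed within 1 kb of mRpL14, mRpL52, mRpS5, mRpS17, mRpS21 and mRpS34. Just outside the distance limit, conservative summits lay 1448 bp downstream of the mRpL13 TSS (pooled signal 152.3), 1850 bp downstream of that of mRpS24 (168.5) and 1904 bp upstream of mRpL46 (239.2), and a second one 1957 bp downstream of the mRpL20 TSS (125.9). The 3 downstream summits were past the 3' end of the gene. The median distance from a member to the nearest conservative summit was 16.2 kb, against 22.6 kb over 13865 genes on the 5 arms that had a summit, and 29 members (39.7%) had one within 10 kb, against 29.5%.

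The summits stood on AT-rich sequence. In the 100 bp around each, G and C made up a median of 22.5% at the 8 members (range 15 to 31), against 33% over all 1799 conservative summits on the arms and 41% at the 6 cytosolic ribosomal peaks. The lowest was mRpS2 with 15%, between flanks of 61% and 54% centred 300 bp to either side, followed by mRpL24 with 18% between 43% and 54%. At 7 members the summit was below both flanks. At mRpS23 it held 30%, with flanks of 31% and 26%. At mRpL23, mRpL24, mRpL20, mRpS2, mRpS10 and mRpL34 both flanks lay beyond the TSSs of the pair, on the side of the genes. Flanks were not measured at other peaks, so whether the dip is particular to these summits was not tested.

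**Figure D5:**
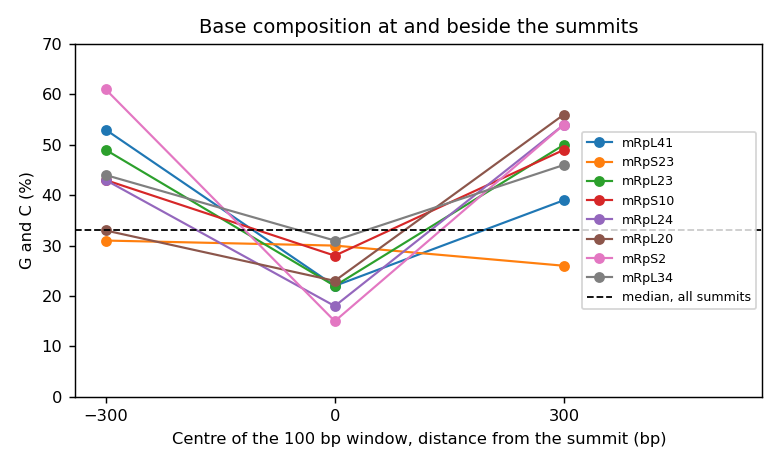
Percent of G and C in 100 bp windows centred on the summit and 300 bp to the left and right on the forward strand, for the 8 bound mitochondrial ribosomal protein genes, with the median of all conservative summits (33%) as a dashed line. The line of mRpS23 is flat, and the other 7 dip at the summit.

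Of the 8 motifs sought, only the AT-rich words TTAAAA and AAATAT were found under member summits. The motifs were the DRE (TATCGATA), the element CGATA of the insulator protein BEAF-32, which the DRE contains, the core GGTCACAC of the Ohler 1 element, the E boxes CAGCTG and CACGTG, the NRF-1 and Ewg core GCATGC, and the words TTAAAA and AAATAT, each sought on both strands. Words that overlap, such as the AT-rich pair, were counted separately. From 250 bp before to 50 bp after the start of the gene, CAGCTG was present in 40 of 73 members (54.8%), against 17.7% of all promoters of that length and 9 of 93 cytosolic ribosomal promoters (9.68%). Its share was similar in bound members (4 of 8) and in the others (36 of 65, 55.4%). The centres of its 45 copies had a median position of 4 bp after the start (quartiles 32 bp before and 18 bp after), against 49 bp before it over all genes. None of the 8 summit windows held it (2.45% of all summit windows did), and in mRpL41, mRpL23, mRpL24 and mRpS2 the copies lay 101 to 156 bp from the summit.

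The DRE was in 15 of 73 member promoters (20.5%), against 9.36% of all and 30.1% of cytosolic ribosomal promoters. CGATA was in 58.9%, against 47.4% of all and 73.1% of cytosolic ones, and GGTCACAC in 11.0%, against 7.70% and 16.1%. GCATGC and CACGTG were in 5 of 73 each (6.85%), against 4.83% and 4.2% of all and 0% and 8.6% of cytosolic ones. None of these 5 was in a member summit window, and they were rare in summit windows in general: the DRE was in 0.389% of all, GGTCACAC in 0.167%, CACGTG in 1%, GCATGC in 1.89% and CGATA in 11%. Their absence from 8 windows is therefore not particular to the members. TTAAAA was in 6 of 8 member windows (75%), against 31.9% of all, and AAATAT in 5 of 8 (62.5%), against 30.1%. In promoters, TTAAAA was in 71.2% of members against 53.4% of all genes, and AAATAT in 64.4% against 53.7%. Cytosolic ribosomal promoters held TTAAAA in 62.4% and AAATAT in 64.5%, the latter like the members. Members not bound held them too, TTAAAA in 69.2% and AAATAT in 63.1%, where the 8 bound members gave 87.5% and 75%. Both words were chosen from earlier results on these peaks, so their shares are a description only. A match describes the letters of a window, and the low share of G and C moves with the AT-rich words; its part in their frequency was not tested.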

How the data were processed

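The authors deposited peak lists for the pooled samples and for each of the 2 replicates, on dm6 per the labels, derived from the alignments and 1 shared control, per the text deposited with them. Neither the aligner nor the caller is given in the sources used here. Each list gave the authors' signal, the deposited score (scaled IDR, 830 or more in thresholded lists), and, in ranked lists, the deposited −log10 of the IDR. Signal was ranked within lists, and the ratio between replicates is given beside its median over all peaks. Depth was unknown.

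Summits, converted to positions counted from 1, were compared with every annotated TSS (Ensembl release 115) using Python 3.11.15, numpy 2.4.6, pandas 2.3.3 and scipy 1.17.1; all coordinates lay within the reference chromosomes. Wilson 95% intervals cover counting error, and the limit for a count of 0 was 3 counts. Of the names on the list of other mitochondrial genes, 4 had no match. Peak assignment was tested on simulated data. Alternatives were other lists, distances, thresholds and TSS choices. Named genes were members with a summit in any thresholded list, those with one at 1 to 2 kb, the 4 highest unbound members and those without a region, bound genes of the other lists, CG10348, and genes head to head with a member or nearer to its summit. Members and lists were chosen with earlier results of these data known.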

Additional observations from a re-analysis of the deposited data

How the results depend on the processing

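Of 60 alternatives computed, 49 stayed within 1.5 times the count or within the SD between replicates. The number of bound members was 7 or 8 with the optimal list, each replicate alone, an IDR of 0.001, peaks above the median signal, any base of the peak, the 5' end of the gene alone, and 500 or 250 bp. It was 11 with 2 kb, and 3 with the nearest TSS alone. The share over all genes was 8.16% in the optimal list, 6.17% and 4.96% in the replicates, 4.35% with an IDR of 0.001 and 5.68% with the nearest TSS alone. For the other rules that share is not given, so their counts, the 11 with 2 kb among them, cannot be set against a background. The cytosolic count was 6, was 5 with the nearest TSS alone, fell to 2 with an IDR of 0.001 and with peaks above the median signal, and was 3 to 5 with 1 replicate left out. The median summit distance was 160 bp with 2 kb, where 143 bp was the main value. The median signal percentile, 93.9, was 96.2 to 98.4 with 1 replicate left out, 96.8 with an IDR of 0.001, 97.1 with peaks above the median signal, and 89.3 with 250 bp and with 2 kb. The limit for head-to-head TSSs, varied after seeing the data, left 7 of the bound members at 500 bp and 8 at 2 kb. No paired analysis was possible because there was 1 group. Without read counts, peaks too weak for the threshold cannot be told from absent ones.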
